A study of Rattus norvegicus with 4 samples.

Results

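Igfbp2-low fibroblasts of rat skin that carry Gpx3 or related fibroblast genes are described here, 270 cells of 23902 kept skin cells and of 37722 kept cells in all. They were chosen by their own counts. Each had at least 500 genes and at most 20% of its UMIs (unique molecular identifiers, 1 per captured RNA molecule) from mitochondrial genes. Each also had under 10 Igfbp2 UMIs, at least 20 UMIs of Col1a1, Col1a2 and Col3a1 together, at least 1 Pdgfra UMI and at least 3 UMIs of Sfrp2, Gpx3, Myoc and Svep1 together. Cells with 2 or more UMIs of the hair papilla genes Corin, Notum, Rspo3 and Wif1, or with any UMI of the endothelial gene Pecam1 or the leukocyte gene Ptprc, were left out. The rule took 73 of 7460 cells in skin replicate 1 (0.979%, exact 95% binomial interval 0.768 to 1.23) and 197 of 16442 in skin replicate 2 (1.2%, 1.04 to 1.38). Intervals here cover counting error only. Among the cells of each library with the collagens and Pdgfra and without Pecam1 and Ptprc, the members were 73 of 303 in skin replicate 1 and 197 of 442 in skin replicate 2.

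The study compared the cell make-up of skin with that of the subcutaneous fascia, the loose connective tissue sheet under the skin, by droplet single-cell RNA sequencing (10x Genomics, 3′ chemistry) of wild-type rats. There were 2 skin libraries and 2 fascia libraries. The tissue had been dissociated with enzymes and dead cells removed. The labels used here give no strain, age, sex, body site or treatment, and do not say whether the 2 libraries of a tissue came from separate animals, so p-values measure the spread between these libraries, which may be technical.

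Fibroblasts build and remodel the collagen-rich matrix of connective tissue. In the dermis they form layers, with a papillary layer under the epidermis, a reticular layer below it and specialised sheath and papilla cells around hair follicles. Igfbp2 codes for a secreted protein that binds insulin-like growth factors. Gpx3 codes for a secreted selenium-containing glutathione peroxidase, Sfrp2 for a secreted modulator of Wnt signalling, Svep1 for a large matrix adhesion protein and Pdgfra for the receptor that fibroblasts use to sense platelet-derived growth factors.

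The label held for Gpx3 and hardly for Sfrp2. Gpx3 had 799 and 1739 CPM (UMIs summed over the cells and scaled to a common total per library) in the skin members of replicates 1 and 2, and it supplied 80.4% and 63.4% of the UMIs of the 4 marker genes. Of the 73 members in skin replicate 1, 53 passed only because Gpx3 was counted, as did 92 of the 197 in skin replicate 2. Gpx3 exceeded Sfrp2 in 70 of 73 and 185 of 197 members, and Sfrp2 exceeded Gpx3 in 0 and 3 members. Sfrp2 had 0 UMIs in all 73 members of skin replicate 1, where a count of 0 allows up to 4.11% of cells with a UMI, and 40 UMIs in skin replicate 2, at most 5 in a cell. In CPM it stood at 0 and 21.7 in the skin members, against 281 and 41 in the fascia cells that pass the same rule. The cells are therefore called Igfbp2-low skin fibroblasts below. These values chose the cells, so they are a description with no test.

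The share of cells with a UMI was set beside that in keratinocytes and endothelial cells of the same libraries, in replicates 1 and 2. A Gpx3 UMI was found in 95.9% and 93.9% of the members, against 2.22% and 7.86% of keratinocytes and 20.3% and 16.8% of endothelial cells. Svep1 was found in 72.6% and 67.5% of the members, against 2.31% and 2.39% of keratinocytes and 0% and 0.962% of endothelial cells. The members stood above both other classes in both libraries for these 2 genes, which are part of the rule. Skin fibroblasts of the same libraries with at least 10 Igfbp2 UMIs had shares close to or above those of the members. These were 98.1% and 93.3% for Gpx3 and 81.0% and 68% for Svep1. Myoc, which codes for myocilin, a secreted protein of trabecular meshwork and some connective tissue cells, was in 8.22% and 43.1% of the members, against 12.4% and 6.89% of keratinocytes and 0.966% and 2.40% of endothelial cells. In skin replicate 1 the 6 members with Myoc had 8 to 29 UMIs each. Igfbp2 itself was in 52.1% and 16.2% of the members, against 10.2% and 23.4% of keratinocytes and 1.45% and 8.17% of endothelial cells. Of the 32 members of skin replicate 2 with an Igfbp2 UMI, 22 had 3 to 9. For Myoc in skin replicate 1 and Igfbp2 in skin replicate 2 the keratinocyte share was above that of the members. It was also above the endothelial share for both genes in both libraries. Whether these keratinocyte shares reflect free RNA was not tested. Median depth was 13961 and 8080 UMIs in the members, 9724 and 3320 UMIs in the 5487 and 9467 keratinocytes, and 10151 and 6111 UMIs in the 207 and 208 endothelial cells.

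Igfbp2 was absent from 35 of 73 and 165 of 197 members. A further 14 and 10 members had 1 or 2 Igfbp2 UMIs, and 24 and 22 had 3 to 9. Just inside the limit of 10, 19 and 12 members had 5 to 9 UMIs, and just outside it 13 and 16 cells had 10 to 19. At the lower limit of the marker sum, 4 and 21 members had exactly 3 UMIs, and 7 and 27 cells with 2 stayed out. The hair papilla genes removed 12 and 3 cells. Summed over the members, Igfbp2 was at 143 and 68.4 CPM, against 5393 and 4839.9 CPM in the 158 and 75 skin fibroblasts of the same libraries with at least 10 Igfbp2 UMIs, which are called Igfbp2-high below. The fascia cells of the same rule had 0.321 and 0.413 CPM.

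Median depth was 9039.5 and 2352.5 UMIs per kept skin cell and 12908 and 10452 per kept fascia cell. The same rule took 2045 of 6812 and 578 of 7008 fascia cells. The members' summed counts were 1131424 and 1841996 UMIs, against 34286772 and 9682856 UMIs in those fascia cells. Keratinocyte markers summed to 2565 and 11106 CPM in the members and to 10.4 and 16.9 CPM in the fascia cells, and to 320 and 1000.1 CPM once members with over 1% keratinocyte UMIs were left out. Macrophage markers summed to 19.4 and 12.5 CPM in the members, with 10 and 7 of 13 at 0, and to 81.1 and 78.7 CPM in the fascia cells. The 9 lymphocyte markers measured were all at 0 in the members. Blood endothelial markers summed to 4.42 and 13 CPM in the members and 15.4 and 21 CPM in the fascia cells, and mural markers to 165 and 220.4 CPM in the members and 271 and 522 CPM in the fascia cells. The part of these other-cell markers in the tissue differences below was not tested, except where values without keratin-bearing cells are given. The Scrublet doublet caller marked 0 and 2 skin cells and so had not worked there. Among the 445 and 2163 highest-scoring cells taken in its place were 11 and 11 members, which were kept. No cell barcode was shared between the members of the 2 skin libraries, and skin replicate 2 shared 1 with the fascia cells of the rule in each fascia library.

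Within the members, 4 sets of cells stood out. Their limits were set after the values were seen, so their sizes and levels are a description with no test. Members with over 1% of their UMIs from the keratinocyte marker list were called keratin-bearing. Of the rest, those with at least 50 Apod UMIs were called Apod-rich, those with at least 5% of their UMIs from Col1a1 collagen-rich, and all others collagen-lean. The 2 skin libraries held these sets in different proportions. Collagen-rich cells were 48 of 73 members (65.8%) in skin replicate 1 and 14 of 197 (7.11%) in skin replicate 2, while collagen-lean cells were 17 (23.3%) and 132 (67.0%). The Apod-rich cells numbered 5 and 9, and the keratin-bearing cells 3 and 42. Only 4 members in skin replicate 1 and 0 in skin replicate 2 had a Col1a1 share between 4% and 6%, that is, near the limit. Of the 22 doublet-marked members, 4 and 1 were Apod-rich and 3 and 7 keratin-bearing, and the keratin-bearing cells had the highest median depth, 34860 and 14890 UMIs.

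**Figure D1:**
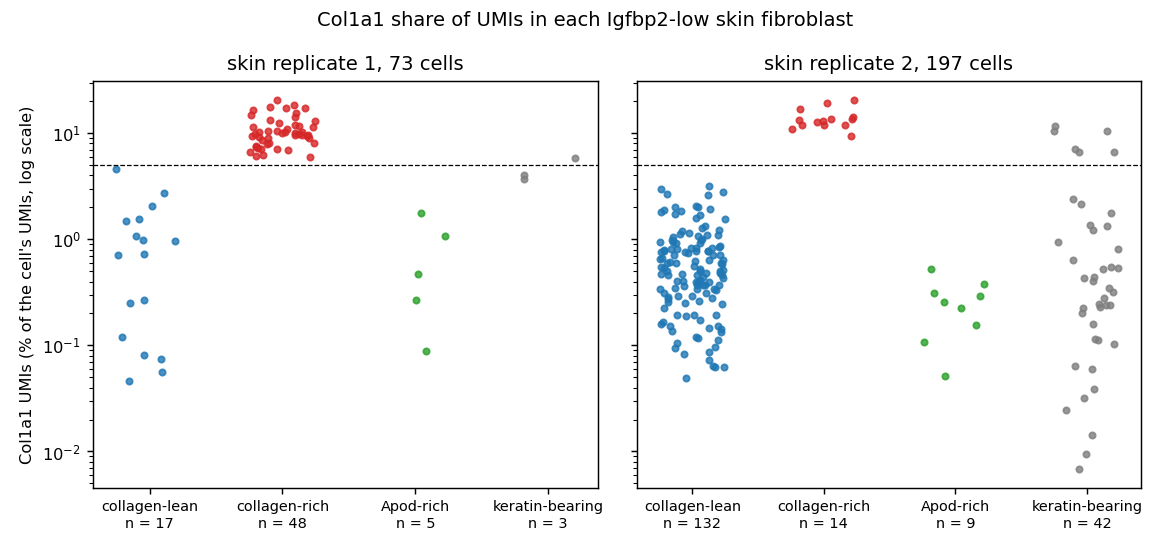
Share of each member's UMIs that came from Col1a1 (percent, log scale), by set, in skin replicate 1 (left, 73 cells) and skin replicate 2 (right, 197 cells); each point is 1 cell and the dashed line marks 5%. Collagen-rich cells, with medians of 9.91% and 13.1%, are apart from collagen-lean cells, with medians of 0.725% and 0.510%.

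Collagen-lean cells were the main set of skin replicate 2. Ranked by how far their level stood above the next highest set in both libraries, their leading genes were Lrrc15, a leucine-rich repeat membrane protein known from TGF-beta-exposed fibroblasts, and Vcam1, an adhesion molecule for leukocytes. Lrrc15 had 359.9 and 113 CPM in collagen-lean and 3.76 and 0 CPM in collagen-rich cells. Vcam1 had 199 and 159 CPM in collagen-lean and 0 and 0 CPM in collagen-rich cells. Col14a1, a collagen that binds to the surface of fibrils, had 145 and 431 CPM in collagen-lean and 18.8 and 6.83 CPM in collagen-rich cells. Bgn, the small proteoglycan biglycan, had 908 and 654 CPM in collagen-lean and 170.2 and 102 CPM in collagen-rich cells. Pi16, a marker of adventitial fibroblasts in the mouse, was also among their 12 leading genes. It had 129 and 342 CPM in collagen-lean and 2.50 and 6.83 CPM in collagen-rich cells, beside 2.70 and 25.6 CPM in Igfbp2-high cells. In skin replicate 1 the highest collagen-lean cells held 16 and 6 Pi16 UMIs, and each of the rest 1 or 0. Secreted binding proteins followed the same division. Igfbp3 had 1789 and 453 CPM in collagen-lean and 0 and 0 CPM in collagen-rich cells. Igfbp6 had 1461 and 1726 CPM in collagen-lean and 83.9 and 61.5 CPM in collagen-rich cells. The related Igfbp7 had 2374 and 3395 CPM in collagen-lean and 217 and 280.1 CPM in collagen-rich cells. All 3 were higher in collagen-lean cells of both libraries. Mgp, the matrix inhibitor of calcification, had 7171 and 1952 CPM in collagen-lean and 1.25 and 0 CPM in collagen-rich cells. Gpc3, a glypican that holds growth factors at the cell surface, had 349 and 263 CPM in collagen-lean and 0 and 0 CPM in collagen-rich cells. The chemokine gene Cxcl12 had 263 and 1122 CPM in collagen-lean and 25 and 34.2 CPM in collagen-rich cells. The fibronectin gene Fn1, likewise higher in collagen-lean cells of both libraries, had 725 and 1616 CPM in collagen-lean and 5.01 and 0 CPM in collagen-rich cells. The cytokine gene Il6 had 1407 and 932 CPM in collagen-lean and 124 and 95.6 CPM in collagen-rich cells. Its UMIs were uneven, since the highest collagen-lean cell of skin replicate 1 held 129, the next 39 and several others 0. The monocyte-attracting chemokine gene Ccl2 had 13461 and 5122 CPM in collagen-lean and 5919 and 683 CPM in collagen-rich cells. Timp1, an inhibitor of matrix metalloproteases, had 3524 and 1395 CPM in collagen-lean and 233 and 205 CPM in collagen-rich cells. For each of these 4 the collagen-lean value was the higher in both libraries. In collagen-lean cells 8 of 17 and 129 of 132 had no Igfbp2 UMI.

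Collagen-rich cells had 104084 and 136031 CPM of Col1a1, against 9572 and 6573 CPM in collagen-lean cells, a gene that also set the division. They were led by Amy1a, an amylase gene, with 85.1 and 61.5 CPM in collagen-rich and 0 and 0 CPM in collagen-lean cells. Ccl19, a chemokine that attracts dendritic cells and lymphocytes, had 237 and 335 CPM in collagen-rich and 32.2 and 3.94 CPM in collagen-lean cells. Ecrg4, which codes for a secreted peptide precursor, had 1448 and 1455 CPM in collagen-rich and 32.2 and 342 CPM in collagen-lean cells. Genes of collagen handling were among the 12 leaders. Pcolce, an enhancer of procollagen cleavage, had 1421 and 1564 CPM in collagen-rich and 526 and 628 CPM in collagen-lean cells. Sparc, a collagen-binding matricellular protein, had 38514 and 37304 CPM in collagen-rich and 6231 and 4772 CPM in collagen-lean cells. Mfap2, a component of elastic microfibrils, had 562 and 574 CPM in collagen-rich and 102 and 213 CPM in collagen-lean cells. Igfbp2-high cells had 62.8 and 48.8 CPM of Amy1a, 378 and 292 CPM of Ccl19 and 837 and 607 CPM of Ecrg4. They also had 1061 and 837 CPM of Pcolce, 22108 and 14998 CPM of Sparc and 429 and 446 CPM of Mfap2. Each of these genes was thus above its collagen-lean value in Igfbp2-high cells of both libraries too. In skin replicate 1, of 1451 genes at 100 CPM or more, 94.1% were in collagen-rich cells within 2-fold of their level in Igfbp2-high cells, while the share in collagen-lean cells was 83.5% of 1875 genes. In skin replicate 2 the shares were 78.1% of 1612 genes in collagen-rich and 77.4% of 1933 genes in collagen-lean cells. The median absolute log2 difference from Igfbp2-high cells was 0.339 in collagen-rich and 0.446 in collagen-lean cells of skin replicate 1. In skin replicate 2 it was 0.531 and 0.420. Summed UMIs were 798931 in collagen-rich and 186164 in collagen-lean cells of skin replicate 1, and 146393 and 1016057 in skin replicate 2. The part of counting error in these values was not tested. No Igfbp2 UMI was found in 21 of 48 and 5 of 14 collagen-rich cells.

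The 14 Apod-rich cells carried Apod, the lipid-binding apolipoprotein D, at 71392 and 59771 CPM, the gene that chose them, and held 99.0% and 66.1% of the Apod UMIs of all members. The keratin limit was applied first, so keratin-bearing members of skin replicate 2 with 586 and 1163 Apod UMIs are not among the 14. Fgf14, an intracellular regulator of sodium channels, had 752 and 770.5 CPM in Apod-rich and 0 and 4.92 CPM in collagen-lean cells. Aldh1a1, which makes retinoic acid, had 221 and 188 CPM in Apod-rich and 0 and 6.89 CPM in collagen-lean cells. Bmp5, a bone morphogenetic protein, had 155 and 633 CPM in Apod-rich and 10.7 and 84.6 CPM in collagen-lean cells. Each was higher in the Apod-rich cells of both libraries. Myoc reached 1991 and 4006 CPM there, and Thbs4, a thrombospondin found in tendon, 1349.5 and 736 CPM. None of the 14 had an Igfbp2 UMI. The 45 keratin-bearing cells were led by the keratin genes that chose them, such as Krt15 at 5300.2 and 12129 CPM. Other epidermal genes stood high in them too. Ly6d, a surface protein of squamous epithelium, was at 890.0 and 2402 CPM and Lgals7, an epidermal galectin, at 4459.7 and 3457 CPM. Whether these RNAs come from a second cell in the droplet, from free RNA or from the fibroblast was not tested.

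**Figure D2:**
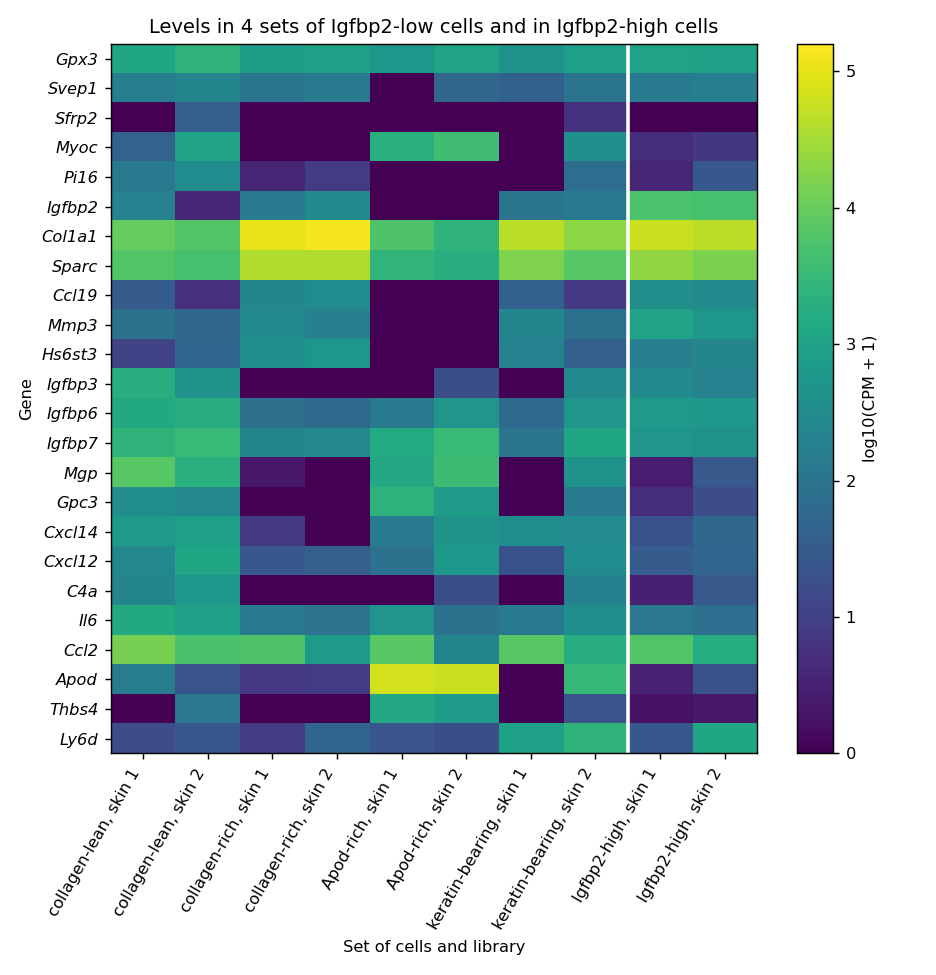
Levels of 24 genes as log10(CPM + 1) of summed UMIs (colour) in the 4 sets of members, each in skin replicates 1 and 2, and, right of the white line, in Igfbp2-high skin fibroblasts. Igfbp3, Mgp and Gpc3 fill the collagen-lean columns and are dark in the collagen-rich ones, where Igfbp3 is at 0 in both libraries; Apod and Thbs4 are brightest in the Apod-rich columns.

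Set against Igfbp2-high fibroblasts of the same skin libraries, some genes were higher and others lower in the members' summed counts. Igfbp2 divided these populations, so this contrast carries no test. The limits on the marker sum and on the hair papilla genes were applied to the members only. Igfbp2-high cells with hair papilla genes therefore stayed in the comparison. Of 5383 genes at 20 CPM or more, 61 (1.13%) were at least 2-fold higher in the members in both libraries and 41 (0.762%) at least 2-fold lower. Mgp had 1236 and 1351 CPM in the members and 1.54 and 26.8 CPM in Igfbp2-high cells. A Mgp UMI was found in 9 of 73 and 132 of 197 members and in 4 of 158 and 7 of 75 Igfbp2-high cells, and in 18.8% and 39.4% of endothelial cells. Gpc3 had 151 and 212 CPM in the members and 3.85 and 15.9 CPM in Igfbp2-high cells. Cxcl14, an epithelial and fibroblast chemokine, had 145 and 599 CPM in the members and 19.6 and 54.9 CPM in Igfbp2-high cells. For each of these the members were higher in both libraries. Plau, the urokinase plasminogen activator, had 69.8 and 374 CPM in the members and 5.78 and 6.10 CPM in Igfbp2-high cells. Postn, the matricellular protein periostin, had 70.7 and 353 CPM in the members and 7.70 and 8.54 CPM in Igfbp2-high cells. The alarmin gene Il33 had 109 and 387 CPM in the members and 16.6 and 26.8 CPM in Igfbp2-high cells. In all 6, skin replicate 2 held the higher member value. Apod had 2881 and 2866 CPM in the members and 2.31 and 19.5 CPM in Igfbp2-high cells.

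In the other direction stood Mmp3, the matrix protease stromelysin-1, with 255 and 73.8 CPM in the members and 968 and 568 CPM in Igfbp2-high cells. Thbs1, which codes for thrombospondin-1, had 529 and 249 CPM in the members and 1883 and 706 CPM in Igfbp2-high cells. Cyp26b1, which breaks down retinoic acid, had 323 and 42.3 CPM in the members and 797 and 509.8 CPM in Igfbp2-high cells. The members were lower in both libraries for each. Prdm1, the transcription factor Blimp1 known from papillary fibroblasts of the mouse, had 43.3 and 13.6 CPM in the members and 129 and 63.4 CPM in Igfbp2-high cells. Tnfrsf19, a receptor of the tumour necrosis factor family, had 21.2 and 11.4 CPM in the members and 67.4 and 65.9 CPM in Igfbp2-high cells. Ltbp4, which stores latent TGF-beta on microfibrils, had 185 and 191 CPM in the members and 454 and 466 CPM in Igfbp2-high cells. Ccn5, a connective tissue growth factor relative, had 110.5 and 160.2 CPM in the members and 281 and 463 CPM in Igfbp2-high cells. These 4 were lower in the members of both libraries as well.

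The tissue comparison asked how the members differ from fascia cells that pass the identical rule. The rule was the same in both tissues but acted unequally on them. Of the cells with the collagens and Pdgfra and without Pecam1 and Ptprc, it took 24.1% and 44.6% in skin. In fascia it took 85.4% and 93.4%. Such cells with at least 10 Igfbp2 UMIs numbered 158 and 75 in skin and 0 in either fascia library. The part of this selection in the tissue differences was not tested. The 15 genes in the rule were left out of the counts. Counts summed per library were compared with edgeR's quasi-likelihood test. Of 12083 genes, 956 (7.91%) were higher and 413 (3.42%) lower in the skin cells at a Benjamini-Hochberg adjusted p under 0.05, and 3545 had an unadjusted p under 0.05. The fascia cells were nearly all collagen-lean, 2044 of 2045 and 569 of 578, and 0 in either library were keratin-bearing. With collagen-lean cells alone in both tissues, 487 genes were higher and 215 lower, of which 400 and 168 were among the calls above. For 1015 genes the level in the members was under 0.2 of that in keratinocytes, endothelial, immune or mural cells of the same libraries, and 238 of them (23.4%) were higher in skin and 27 (2.66%) lower. Of the other 11068 genes, 718 (6.49%) were higher and 386 (3.49%) lower. Without fascia replicate 1 the counts were 67 higher and 29 lower, and without fascia replicate 2 they were 262 and 93. Each list count below stands against the shares over all genes tested, 7.91% higher and 3.42% lower. Counts near those shares are not read as a result about the list. For each list below, the libraries whose removal moved a count by over 1.5 times are named with the counts they left, and likewise the choices of cells. Beside a count of 0, the number at an unadjusted p under 0.05 by edgeR is given as unadjusted, with the number called by DESeq2. For genes named because they were called, a lack of overlap between the libraries of the tissues is a description and no added evidence.

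Epidermal genes were among the largest rises in skin, and 8 of the 12 genes named by size had their highest level in the keratin-bearing set in both libraries. Ly6d had 88.4 and 828 CPM in the skin cells and 0 UMIs in both fascia libraries, at least 8009.9-fold higher with 3 counts over the fascia libraries as the floor. It had 16.1 and 24.6 CPM in collagen-lean members. Stfa2, a stefin-type protease inhibitor, had 21.2 and 207 CPM in the skin cells and 0 UMIs in both fascia libraries, at least 2001-fold higher, and 0 and 17.7 CPM in collagen-lean members. Anxa8, Dapl1, Clca5, Fam25a, Serpinb2 and Bcl11b were the other 6 of these 8. Bcl11b, a zinc finger transcription factor, had 63.6 and 53.2 CPM in the skin cells and 0.117 and 0.207 CPM in the fascia cells (log2 change 8.96, SE 0.45, adjusted p = 0.00502), and 21.5 and 13.8 CPM in collagen-lean members. The remaining 4 were led by Mmp3, with 255 and 73.8 CPM in the skin cells and 0.262 and 0.103 CPM in the fascia cells (log2 change 9.91, SE 1.06, adjusted p = 0.0114). Hs6st3, a heparan sulfate sulfotransferase, had 299.6 and 84.1 CPM in the skin cells and 0.437 and 1.55 CPM in the fascia cells (log2 change 8.29, SE 1.10, adjusted p = 0.0162). Ccl19 had 176 and 30.9 CPM in the skin cells and 0.437 and 0.413 CPM in the fascia cells (log2 change 8.30, SE 1.19, adjusted p = 0.0183). Both skin libraries were above both fascia libraries for each, which was a condition for naming the 12. Moxd1, a monooxygenase relative of dopamine beta-hydroxylase, had 20.3 and 34.7 CPM in the skin cells and 0.0583 and 0 CPM in the fascia cells, with skin higher by a ratio of 643-fold (95% counting interval 173 to 5396), adjusted p = 0.00543. In collagen-lean cells alone Mmp3 was called (log2 change 8.15, adjusted p = 0.00424) and Ccl19 was not (log2 change 4.72, adjusted p = 0.0661).

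The genes that fell most in skin were near absent from the members. Atp8b4, a lipid flippase, had 0 UMIs in the members of both skin libraries and 47.9 and 44.4 CPM in the fascia cells, at least 46.7-fold lower with 3 counts over the skin libraries as the floor. Shisa6, a regulator of glutamate receptors, had 0 UMIs in the members and 26.3 and 25.3 CPM in the fascia cells, at least 25.9-fold lower. Among genes with 1 to 3 UMIs in the members, Mrgprg, an orphan receptor of the Mas-related family, had 0 and 0.543 CPM in the skin cells and 427 and 77.5 CPM in the fascia cells, with skin lower by a ratio of 1039.8-fold (95% counting interval 187 to 41072), adjusted p = 0.0224. Duox1, an oxidase that makes hydrogen peroxide, had 0 and 0.543 CPM in the skin cells and 98.8 and 42 CPM in the fascia cells, with skin lower by a ratio of 257-fold (95% counting interval 46 to 10136), adjusted p = 0.015. Adra1b, an alpha-1 adrenergic receptor, had 0.884 and 0.543 CPM in the skin cells and 48.1 and 38 CPM in the fascia cells, with skin lower by a ratio of 68.2-fold (95% counting interval 18.9 to 564), adjusted p = 0.00824. Skin libraries were below fascia libraries without overlap for all of these, which was a condition for naming the 12. Daglb, which makes the endocannabinoid 2-arachidonoylglycerol, had 2.65 and 9.23 CPM in the skin cells and 1376 and 804 CPM in the fascia cells (log2 change -7.14, SE 0.58, adjusted p = 0.00848). Hs3st5, another heparan sulfate sulfotransferase, had 1.77 and 2.17 CPM in the skin cells and 136 and 130.3 CPM in the fascia cells (log2 change -5.76, SE 0.29, adjusted p = 0.00502). Dact2, Efhd1, Aldh1a3 and Wnt2 were also among the 12 and are described with their lists.

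**Figure D3:**
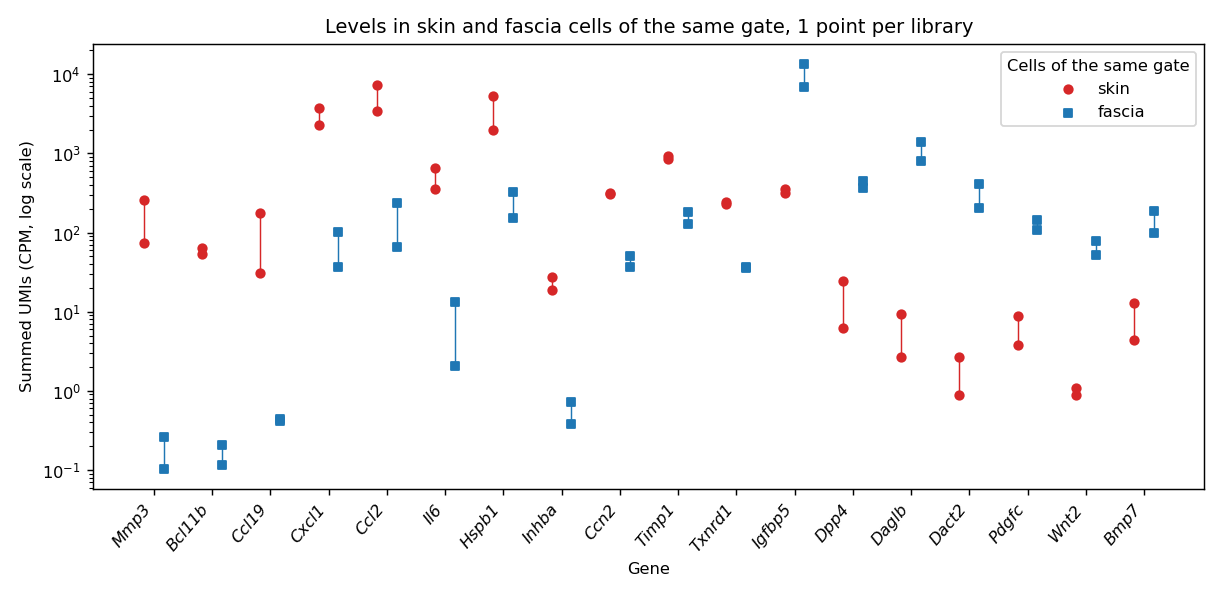
Summed UMIs as CPM (log scale) of 18 genes in the skin members (red circles) and the fascia cells of the same rule (blue squares), 1 point per library with a line joining the 2 libraries of a tissue. For Mmp3, Cxcl1 and Ccn2 both skin points lie above both fascia points, and for Igfbp5, Daglb and Wnt2 both lie below.

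Genes of adventitial fibroblasts, the Pi16- and Dpp4-bearing cells that line vessels and fascial planes in the mouse, were lower in the members, with 0 higher (0 unadjusted, 0 by DESeq2) and 9 lower of 15 tested. Their median log2 change was -1.91, beside -0.02 over all genes tested, of which 3.42% were lower. Dpp4, a dipeptidyl peptidase and surface marker of these cells, had 6.19 and 24.4 CPM in the skin cells and 442 and 369.9 CPM in the fascia cells (log2 change -4.40, SE 0.50, adjusted p = 0.0122). Dact2, a modulator of Wnt and TGF-beta signalling, had 0.884 and 2.71 CPM in the skin cells and 409.9 and 206 CPM in the fascia cells (log2 change -6.99, SE 0.59, adjusted p = 0.00853). Efhd1, a mitochondrial calcium-binding protein, had 0 and 3.80 CPM in the skin cells and 433 and 241 CPM in the fascia cells (log2 change -6.94, SE 0.74, adjusted p = 0.0114). In each the skin libraries lay below the fascia libraries. Wnt2, a secreted Wnt ligand, had 0.884 and 1.09 CPM in the skin cells and 78.5 and 52.4 CPM in the fascia cells, with skin lower by a ratio of 72.1-fold (95% counting interval 24.7 to 349.9), adjusted p = 0.00824. Anxa3, an annexin, had 0.884 and 14.7 CPM in the skin cells and 436 and 226 CPM in the fascia cells (log2 change -5.01, SE 0.78, adjusted p = 0.0211). Cd55, which shields cells from complement, Sema3c, a semaphorin, Cd248, the receptor endosialin, and Mfap5, a microfibril protein, fell as well. The log2 change of Cd55 turned to 0.0131 with cells of 2 or more Pi16 UMIs left out. Pi16 itself was not called, with 23 and 213 CPM in the skin cells and 4025 and 1558 CPM in the fascia cells (log2 change -4.34, SE 1.03, adjusted p = 0.0546). In collagen-lean cells alone it was called (log2 change -3.44, adjusted p = 0.0329). Clec3b, Ackr3, Cd34, Igfbp6 and Procr were also not called, but Cd34, a surface sialomucin, was called lower in collagen-lean cells alone (log2 change -1.29, adjusted p = 0.0326). Adventitial genes had 0 higher and 4 lower without fascia replicate 1 and 0 higher and 5 lower without fascia replicate 2. By cells kept, adventitial genes had 0 in both directions without cells of 2 or more Pi16 UMIs (1 and 4 unadjusted). Mfap5 was no longer called in collagen-lean cells alone (adjusted p = 0.0569).

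Genes of the upper dermis and the dermal papilla had 5 higher and 0 lower (0 unadjusted, 0 by DESeq2) of 14 tested (median 2.84), beside 7.91% of all genes higher. Prdm1 had 43.3 and 13.6 CPM in the skin cells and 0.992 and 1.45 CPM in the fascia cells (log2 change 4.95, SE 0.76, adjusted p = 0.0204). Trps1, a transcription factor of hair follicle development, had 134 and 50.5 CPM in the skin cells and 8.72 and 11.5 CPM in the fascia cells (log2 change 3.59, SE 0.62, adjusted p = 0.0251). Col13a1, a transmembrane collagen, had 26.5 and 8.14 CPM in the skin cells and 0.612 and 0.31 CPM in the fascia cells (log2 change 5.39, SE 0.83, adjusted p = 0.0208). Skin replicate 1 held the higher value of these 3. Tfap2c, a transcription factor also used by keratinocytes, had 7.95 and 60.3 CPM in the skin cells and 0.0292 and 0.103 CPM in the fascia cells, with skin higher by a ratio of 887-fold (95% counting interval 240.3 to 7410.5), adjusted p = 0.0131. Lef1, a transcription factor of Wnt signalling, rose too but lay under 0.2 of its level in another cell class. Apcdd1, a Wnt inhibitor, was not called, with 301 and 98.8 CPM in the skin cells and 123 and 143 CPM in the fascia cells. Crabp1, a retinoic acid-binding protein, was not called either, with 1056 and 249.7 CPM in the skin cells and 151 and 171 CPM in the fascia cells. Upper dermis genes had 0 in both directions without fascia replicate 1 (7 and 0 unadjusted), 1 higher and 0 lower without fascia replicate 2 and 7 higher and 1 lower without skin replicate 2. By cells kept, upper dermis genes had 3 higher and 0 lower in collagen-lean cells alone and 2 higher and 0 lower without cells of 2 or more Pi16 UMIs. Prdm1 and Trps1 were no longer called in collagen-lean cells alone (adjusted p = 0.0708 to 0.115). The lower dermis list had 1 higher and 1 lower of 10 tested (median -0.13), with Mest, an imprinted gene, higher and Mfap5 lower. Lower dermis genes had 0 in both directions without fascia replicate 1 (2 and 0 unadjusted), 1 higher and 0 lower without fascia replicate 2, 3 higher and 2 lower without skin replicate 1 and 1 higher and 4 lower without skin replicate 2. By cells kept, lower dermis genes had 1 higher and 0 lower without keratin-bearing cells, 2 higher and 0 lower in collagen-lean cells alone, 0 in both directions without doublet-marked cells (2 and 2 unadjusted) and 0 in both directions without cells of 2 or more Pi16 UMIs (1 and 4 unadjusted). Mfap5 was no longer called in collagen-lean cells alone (adjusted p = 0.0569). The list of perivascular and parenchymal fibroblasts had 2 higher and 0 lower (0 unadjusted, 1 by DESeq2) of 15 tested (median 0.32). Perivascular and parenchymal genes had 0 in both directions without fascia replicate 1 (3 and 0 unadjusted), 1 higher and 0 lower without fascia replicate 2, 4 higher and 2 lower without skin replicate 1 and 2 higher and 3 lower without skin replicate 2. By cells kept, perivascular and parenchymal genes had 1 higher and 0 lower in collagen-lean cells alone and 1 higher and 2 lower without cells of 2 or more Pi16 UMIs.

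Most structural matrix genes did not pass the test, which in simulated data missed changes of 2-fold. Fibrillar and fibril-associated collagens had 2 higher and 0 lower (1 unadjusted, 1 by DESeq2) of 14 tested (median 0.67). Col11a1, a minor fibrillar collagen that seeds thin fibrils, had 42.4 and 33.7 CPM in the skin cells and 1.57 and 1.14 CPM in the fascia cells (log2 change 5.08, SE 0.37, adjusted p = 0.00762). Col8a2, a network-forming collagen, rose at a lower level. The collagen VI gene Col6a1 was not called, with 1077 and 1085 CPM in the skin cells and 742 and 912 CPM in the fascia cells. Collagen processing genes had 1 higher and 1 lower of 19 tested (median 0.66). The crosslinking enzyme gene Lox had 41.5 and 23.9 CPM in the skin cells and 5.77 and 10.9 CPM in the fascia cells (log2 change 2.33, SE 0.52, adjusted p = 0.0477). Its relative Loxl1, which serves elastic fibres, had 40.7 and 87.4 CPM in the skin cells and 469 and 282 CPM in the fascia cells (log2 change -2.26, SE 0.39, adjusted p = 0.0254). These relatives thus moved in opposite directions. Sparc was not called, with 29731 and 8032 CPM in the skin cells and 3465 and 5841 CPM in the fascia cells. Its level was higher in skin replicate 1 than in skin replicate 2. Small leucine-rich proteoglycans had 1 higher and 0 lower (1 unadjusted, 1 by DESeq2) of 7 tested (median 0.13). The rise was in Lum, which codes for lumican, with 1423 and 647 CPM in the skin cells and 191 and 246 CPM in the fascia cells (log2 change 2.65, SE 0.56, adjusted p = 0.042). The collagens had 1 higher and 0 lower without fascia replicate 1, 1 higher and 0 lower without fascia replicate 2, 3 higher and 1 lower without skin replicate 1 and 2 higher and 3 lower without skin replicate 2. By cells kept, the collagens had 0 in both directions without cells of 2 or more Pi16 UMIs (2 and 2 unadjusted). Collagen processing had 0 in both directions without fascia replicate 1 (2 and 1 unadjusted), 0 in both directions without fascia replicate 2 (2 and 1 unadjusted) and 6 higher and 2 lower without skin replicate 2. By cells kept, collagen processing had 0 in both directions without keratin-bearing cells (6 and 1 unadjusted), 1 higher and 0 lower in collagen-lean cells alone, 0 higher and 1 lower without doublet-marked cells and 0 higher and 1 lower without cells of 2 or more Pi16 UMIs. Lox and Loxl1 were no longer called in collagen-lean cells alone (adjusted p = 0.0546 to 0.12). The proteoglycans had 0 in both directions without fascia replicate 1 (1 and 1 unadjusted), 0 in both directions without fascia replicate 2 (1 and 0 unadjusted) and 1 higher and 1 lower without skin replicate 2. By cells kept, the proteoglycans had 2 higher and 0 lower in collagen-lean cells alone, 0 in both directions without doublet-marked cells (2 and 1 unadjusted) and 0 in both directions without cells of 2 or more Pi16 UMIs (0 and 1 unadjusted).

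Elastic fibre genes had 3 higher and 2 lower of 17 tested (median -0.31). Mfap4, an elastin-associated glycoprotein, had 914 and 580.3 CPM in the skin cells and 70.9 and 159 CPM in the fascia cells (log2 change 3.08, SE 0.58, adjusted p = 0.0315). Ltbp4 had 185 and 191 CPM in the skin cells and 57.3 and 66.6 CPM in the fascia cells (log2 change 1.94, SE 0.25, adjusted p = 0.015). Others fell. Emilin2, an elastic fibre glycoprotein, had 32.7 and 41.3 CPM in the skin cells and 312 and 211 CPM in the fascia cells (log2 change -2.50, SE 0.29, adjusted p = 0.0123). Mfap5 had 720.3 and 769 CPM in the skin cells and 2963 and 2322 CPM in the fascia cells (log2 change -1.49, SE 0.32, adjusted p = 0.0446). The basement membrane list had 2 higher and 0 lower (2 unadjusted, 0 by DESeq2) of 14 tested (median 0.48). Col15a1, a collagen of the basement membrane zone, had 683 and 375 CPM in the skin cells and 45.5 and 66.9 CPM in the fascia cells (log2 change 3.63, SE 0.52, adjusted p = 0.0185), and Col18a1, the parent of endostatin, rose as well. Elastic fibre genes had 0 in both directions without fascia replicate 1 (3 and 1 unadjusted), 0 higher and 1 lower without fascia replicate 2, 3 higher and 4 lower without skin replicate 1 and 3 higher and 4 lower without skin replicate 2. By cells kept, elastic fibre genes had 3 higher and 1 lower without keratin-bearing cells, 2 higher and 1 lower in collagen-lean cells alone, 1 higher and 1 lower without doublet-marked cells and 0 in both directions without cells of 2 or more Pi16 UMIs (2 and 4 unadjusted). Mfap5 was no longer called in collagen-lean cells alone (adjusted p = 0.0569). Basement membrane genes had 0 in both directions without fascia replicate 1 (2 and 0 unadjusted), 0 in both directions without fascia replicate 2 (1 and 2 unadjusted), 5 higher and 0 lower without skin replicate 1 and 2 higher and 4 lower without skin replicate 2. By cells kept, basement membrane genes had 1 higher and 0 lower without keratin-bearing cells, 1 higher and 0 lower without doublet-marked cells and 1 higher and 0 lower without cells of 2 or more Pi16 UMIs. Col18a1 was no longer called in collagen-lean cells alone (adjusted p = 0.293).

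Matrix proteases and their inhibitors had 3 higher and 3 lower of 22 tested (median 0.50), beside 7.91% higher and 3.42% lower over all genes. Beside Mmp3, Timp1 rose, with 845 and 936 CPM in the skin cells and 129 and 181 CPM in the fascia cells (log2 change 2.86, SE 0.33, adjusted p = 0.0123). Adamts4, an aggrecan-cleaving protease, rose as well and lay under 0.2 of its level in another cell class. Timp4, a second inhibitor of the Timp family, fell, with 2.65 and 5.43 CPM in the skin cells and 80.7 and 52.5 CPM in the fascia cells (log2 change -3.67, SE 0.39, adjusted p = 0.0114), so that Timp1 and Timp4 moved apart. Plat, the tissue plasminogen activator, had 15 and 44.5 CPM in the skin cells and 311 and 205 CPM in the fascia cells (log2 change -2.81, SE 0.44, adjusted p = 0.0213). Adamtsl4, a microfibril-binding protein, had 18.6 and 49.4 CPM in the skin cells and 258 and 151 CPM in the fascia cells (log2 change -2.28, SE 0.43, adjusted p = 0.0329). The insulin-like growth factor list had 0 higher (2 unadjusted, 1 by DESeq2) and 1 lower of 10 tested (median 0.15). The fall was in Igfbp5, a binding protein that the matrix retains, with 355 and 316 CPM in the skin cells and 13376 and 6866 CPM in the fascia cells (log2 change -4.55, SE 0.54, adjusted p = 0.0131). Collagen-lean cells alone gave -4.14 (adjusted p = 0.0109). Both skin libraries lay below both fascia libraries. Igfbp6 was not called, with 310.2 and 1143 CPM in the skin cells and 3431 and 3019 CPM in the fascia cells. Igfbp7 was not called, with 614 and 2412 CPM in the skin cells and 1198 and 1294 CPM in the fascia cells, where skin replicate 2 lay above and skin replicate 1 below the fascia libraries. Proteases and inhibitors had 1 higher and 1 lower without fascia replicate 1, 7 higher and 5 lower without skin replicate 1 and 5 higher and 5 lower without skin replicate 2. By cells kept, proteases and inhibitors had 3 higher and 1 lower without keratin-bearing cells and 2 higher and 0 lower without cells of 2 or more Pi16 UMIs. Adamtsl4 was no longer called in collagen-lean cells alone (adjusted p = 0.0649). The insulin-like growth factor list had 0 in both directions without fascia replicate 1 (0 and 2 unadjusted), 2 higher and 2 lower without skin replicate 1 and 1 higher and 2 lower without skin replicate 2. By cells kept, the insulin-like growth factor list had 0 higher and 2 lower without cells of 2 or more Pi16 UMIs.

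Signalling genes of the BMP and activin family, secreted ligands that act through Smad proteins, had 10 higher and 3 lower of 24 tested (median 1.61). Among ligands, Inhba, the activin A subunit, had 27.4 and 19 CPM in the skin cells and 0.379 and 0.723 CPM in the fascia cells (log2 change 5.88, SE 0.54, adjusted p = 0.00932). Bmp4 had 183 and 256 CPM in the skin cells and 54.4 and 44.4 CPM in the fascia cells (log2 change 2.47, SE 0.23, adjusted p = 0.00982). Bmp2 rose as well. Bmp5 rose to 7.95 and 83.1 CPM in the skin cells, against 2.30 and 0.62 CPM in the fascia cells. It had 155 and 633 CPM in Apod-rich and 10.7 and 84.6 CPM in collagen-lean members. Bmp7 fell, with 4.42 and 13 CPM in the skin cells and 186 and 97.7 CPM in the fascia cells (log2 change -3.65, SE 0.49, adjusted p = 0.0164), as did Bmp3. With cells of 2 or more Pi16 UMIs left out in both tissues, the log2 change of Bmp7 turned to 0.46. Among antagonists, Nog and Grem1 rose at under 12 CPM, and Grem1 lay under 0.2 of its level in another cell class. The target Id3, an inhibitor of differentiation factors, had 467 and 591 CPM in the skin cells and 179 and 255 CPM in the fascia cells (log2 change 1.61, SE 0.30, adjusted p = 0.0307). Of the inhibitory Smads, Smad7 was higher and Smad6 lower. BMP and activin genes had 1 higher and 0 lower without fascia replicate 1, 1 higher and 2 lower without fascia replicate 2 and 8 higher and 5 lower without skin replicate 2. By cells kept, BMP and activin genes had 5 higher and 1 lower without keratin-bearing cells, 6 higher and 1 lower in collagen-lean cells alone, 4 higher and 0 lower without doublet-marked cells and 3 higher and 1 lower without cells of 2 or more Pi16 UMIs. Bmp2, Bmp3, Nog and Smad6 were no longer called in collagen-lean cells alone (adjusted p = 0.0674 to 0.13).

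Genes of the TGF-beta response and of myofibroblasts had 5 higher and 0 lower (2 unadjusted, 2 by DESeq2) of 22 tested (median 0.50). Ccn2, connective tissue growth factor, a target of TGF-beta and of Yap, had 319 and 311 CPM in the skin cells and 49.8 and 37 CPM in the fascia cells (log2 change 3.20, SE 0.30, adjusted p = 0.00932). Thbs1, an activator of latent TGF-beta, had 529 and 249 CPM in the skin cells and 4.46 and 9.60 CPM in the fascia cells (log2 change 6.22, SE 0.74, adjusted p = 0.013). Lrrc15 had 61.9 and 63.5 CPM in the skin cells and 0.7 and 2.58 CPM in the fascia cells (log2 change 5.83, SE 0.64, adjusted p = 0.0116). Skin libraries lay above fascia libraries for all 3, and Tnc, the matrix protein tenascin-C, rose too. Fn1 was not called, with 148 and 1051 CPM in the skin cells and 5399.8 and 7532 CPM in the fascia cells. Postn was not called, with 70.7 and 353 CPM in the skin cells and 725 and 2259.6 CPM in the fascia cells. Both skin libraries lay below both fascia libraries for Fn1 and Postn. In collagen-lean cells alone Fn1 was called lower (log2 change -2.39, adjusted p = 0.0371). TGF-beta response genes had 2 higher and 0 lower without fascia replicate 1, 6 higher and 1 lower without skin replicate 1 and 6 higher and 4 lower without skin replicate 2. By cells kept, TGF-beta response genes had 6 higher and 1 lower in collagen-lean cells alone and 2 higher and 0 lower without cells of 2 or more Pi16 UMIs. Tnc was no longer called in collagen-lean cells alone (adjusted p = 0.1). Wnt antagonists and targets had 4 higher and 1 lower of 21 tested (median 1.00). Wnt4, a secreted Wnt ligand, had 3.54 and 14.1 CPM in the skin cells and 0.321 and 0.62 CPM in the fascia cells (log2 change 4.71, SE 0.72, adjusted p = 0.0204). Dkk3, a Dickkopf relative, had 35.4 and 47.8 CPM in the skin cells and 15 and 20.9 CPM in the fascia cells (log2 change 1.54, SE 0.26, adjusted p = 0.0247). Wnt2 was the 1 that fell. The other rises, Lef1 and Rnf43, a ubiquitin ligase that removes Wnt receptors, lay under 0.2 of their level in another cell class. Wnt genes had 0 higher and 1 lower without fascia replicate 1, 1 higher and 2 lower without fascia replicate 2 and 6 higher and 4 lower without skin replicate 2. By cells kept, Wnt genes had 1 higher and 1 lower without keratin-bearing cells, 2 higher and 1 lower in collagen-lean cells alone, 2 higher and 1 lower without doublet-marked cells and 0 in both directions without cells of 2 or more Pi16 UMIs (2 and 3 unadjusted). Dkk3 and Wnt4 were no longer called in collagen-lean cells alone (adjusted p = 0.0646 to 0.0839).

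Growth factor ligands and receptors had 4 higher and 3 lower of 22 tested (median 0.66). Pdgfc and Pdgfd, ligands of the PDGF family, fell, while Pdgfa rose. Pdgfc had 8.84 and 3.80 CPM in the skin cells and 146 and 107 CPM in the fascia cells (log2 change -4.10, SE 0.47, adjusted p = 0.0124). Pdgfd had 9.72 and 41.8 CPM in the skin cells and 160.1 and 161 CPM in the fascia cells (log2 change -2.33, SE 0.48, adjusted p = 0.0397). Pdgfa and the EGF receptor ligand gene Hbegf lay under 0.2 of their level in another class. The FGF receptor genes parted too. Fgfr1 had 67.2 and 107 CPM in the skin cells and 319 and 302 CPM in the fascia cells (log2 change -1.52, SE 0.24, adjusted p = 0.0218). Fgfr2 had 74.2 and 46.1 CPM in the skin cells and 8.28 and 19.2 CPM in the fascia cells (log2 change 2.51, SE 0.55, adjusted p = 0.0463). Growth factor genes had 0 in both directions without fascia replicate 1 (7 and 4 unadjusted), 2 higher and 1 lower without fascia replicate 2, 9 higher and 4 lower without skin replicate 1 and 5 higher and 6 lower without skin replicate 2. By cells kept, growth factor genes had 2 higher and 1 lower without keratin-bearing cells, 5 higher and 1 lower in collagen-lean cells alone, 3 higher and 1 lower without doublet-marked cells and 4 higher and 1 lower without cells of 2 or more Pi16 UMIs. Fgfr1, Fgfr2, Pdgfa and Pdgfd were no longer called in collagen-lean cells alone (adjusted p = 0.0568 to 0.337).

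Chemokine and cytokine genes, which code for secreted proteins that draw and steer leukocytes, had 8 higher and 0 lower (4 unadjusted, 3 by DESeq2) of 19 tested (median 2.09). The median of the same genes between skin and fascia was 1.80 in endothelial, 0.47 in immune and 2.42 in mural cells. What moved these genes in several cell classes was not tested. Cxcl1, which attracts neutrophils, had 2299 and 3709.6 CPM in the skin cells and 36.6 and 101 CPM in the fascia cells (log2 change 5.74, SE 0.66, adjusted p = 0.0124). Ccl2 had 7316 and 3469.6 CPM in the skin cells and 65.8 and 233 CPM in the fascia cells (log2 change 5.58, SE 0.93, adjusted p = 0.0234). Il6 had 352 and 654 CPM in the skin cells and 2.04 and 13.3 CPM in the fascia cells (log2 change 6.37, SE 1.01, adjusted p = 0.0215). Both skin libraries lay above both fascia libraries for all 3. An Il6 UMI was in 34.2% and 44.7% of members and 62.3% and 69.2% of skin endothelial cells. For Cxcl1 these shares were 54.8% and 58.9% against 71.5% and 79.8%, and for Ccl2 65.8% and 50.8% against 60.4% and 60.1%. In skin replicate 1, a collagen-lean member held 129 Il6 and 453 Cxcl1 UMIs, the most of any member there. Ccl7, a relative of Ccl2, had 404 and 653 CPM in the skin cells and 45.5 and 141 CPM in the fascia cells (log2 change 2.80, SE 0.59, adjusted p = 0.0415). Cxcl10, an interferon-responsive chemokine, had 166 and 30.4 CPM in the skin cells and 4.64 and 4.75 CPM in the fascia cells (log2 change 4.81, SE 0.93, adjusted p = 0.0344). The neutrophil chemokine gene Cxcl3 and Ccl20, which attracts dendritic cells, rose, but lay under 0.2 of their level in another cell class. Cxcl12, which retains stem cells and lymphocytes, was not called, with 66.3 and 752 CPM in the skin cells and 2021 and 2875 CPM in the fascia cells. In collagen-lean cells alone, Cxcl1 was called at 6.30 (adjusted p = 0.00914), Ccl2 at 5.96 (adjusted p = 0.0165) and Il6 at 7.32 (adjusted p = 0.0151). Chemokine and cytokine genes had 3 higher and 0 lower without fascia replicate 1, 10 higher and 3 lower without skin replicate 1 and 10 higher and 4 lower without skin replicate 2. By cells kept, chemokine and cytokine genes had 7 higher and 1 lower in collagen-lean cells alone and 6 higher and 2 lower without cells of 2 or more Pi16 UMIs. Ccl19 and Cxcl10 were no longer called in collagen-lean cells alone (adjusted p = 0.0661 to 0.205).

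The promoters of the rising chemokine and cytokine genes were searched for an NF-kappaB motif, GGG and TTTCC with any 2 bases between them, on both strands. NF-kappaB is a transcription factor known to act at such genes. Promoter here means 250 bases before to 50 bases after the RefSeq start on GRCr8, a build later than the one used for the counts. It was in 3 of the 6 rising genes with an entry (Cxcl1, Ccl20 and Il6) and in 1.5% of all 24206 promoters. The Cxcl1 and Il6 promoters are printed with the matches in capitals, as the 2 rising genes with a match whose level was at least 0.2 of that in the other cell classes. A match is a description of these letters and not a binding site.
Cxcl1, chr14:17479272-17479571, minus strand: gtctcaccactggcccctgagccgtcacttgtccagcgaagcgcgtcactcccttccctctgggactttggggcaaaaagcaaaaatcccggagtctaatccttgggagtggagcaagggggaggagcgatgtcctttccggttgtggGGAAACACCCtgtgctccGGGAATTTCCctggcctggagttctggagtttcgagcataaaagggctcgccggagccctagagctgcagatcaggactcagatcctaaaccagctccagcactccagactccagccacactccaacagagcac
Il6, chr4:5894526-5894825, minus strand: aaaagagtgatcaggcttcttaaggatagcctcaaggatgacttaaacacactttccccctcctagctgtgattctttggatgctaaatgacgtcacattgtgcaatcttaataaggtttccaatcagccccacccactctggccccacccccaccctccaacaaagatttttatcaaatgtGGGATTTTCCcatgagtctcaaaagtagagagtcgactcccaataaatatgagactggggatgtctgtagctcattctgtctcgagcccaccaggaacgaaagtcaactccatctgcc
In Cxcl1 there are 2 matches in the 300 bases, the first of them on the opposite strand, and in Il6 there is 1.

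Heat shock proteins and chaperones, which keep other proteins folded under stress, had 10 higher and 0 lower (0 unadjusted, 0 by DESeq2) of 11 tested (median 2.52). Hspb1, the small heat shock protein 27, had 5333 and 1948 CPM in the skin cells and 154 and 326 CPM in the fascia cells (log2 change 4.35, SE 0.80, adjusted p = 0.0302). Dnajb1, a co-chaperone of Hsp70, had 307 and 890.3 CPM in the skin cells and 56.6 and 78.2 CPM in the fascia cells (log2 change 3.40, SE 0.49, adjusted p = 0.0183). Hsp90aa1, the inducible Hsp90, had 3842 and 3601 CPM in the skin cells and 402 and 539 CPM in the fascia cells (log2 change 3.33, SE 0.40, adjusted p = 0.0131). For each, both skin libraries lay above both fascia libraries. Dnaja1, another Hsp70 partner, had 1404 and 1666 CPM in the skin cells and 216 and 289 CPM in the fascia cells (log2 change 2.93, SE 0.33, adjusted p = 0.0118). Hspe1, the mitochondrial chaperonin partner, was not called, with 336 and 314 CPM in the skin cells and 197 and 185 CPM in the fascia cells (log2 change 1.12, SE 0.27, adjusted p = 0.0594). The same genes had a median of 1.56 in endothelial, 1.83 in immune and 0.95 in mural cells. Heat shock genes had 0 in both directions without fascia replicate 1 (9 and 0 unadjusted) and 0 in both directions without fascia replicate 2 (10 and 0 unadjusted). Dnajb1 was no longer called in collagen-lean cells alone (adjusted p = 0.0544).

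Immediate early genes, transcription factors and regulators that cells switch on soon after a stimulus, had 11 higher and 0 lower (0 unadjusted, 0 by DESeq2) of 23 tested (median 2.06). Fos had 3357 and 5680.2 CPM in the skin cells and 415 and 626 CPM in the fascia cells (log2 change 3.41, SE 0.42, adjusted p = 0.0141). Its partner Jun had 2609 and 4245 CPM in the skin cells and 337 and 582 CPM in the fascia cells (log2 change 3.20, SE 0.44, adjusted p = 0.0169). Atf3, a stress-responsive transcription factor, had 1634 and 1678 CPM in the skin cells and 81.5 and 208 CPM in the fascia cells (log2 change 3.85, SE 0.56, adjusted p = 0.0189). Socs3, a brake on cytokine signalling, had 624 and 1305 CPM in the skin cells and 79.4 and 108 CPM in the fascia cells (log2 change 3.64, SE 0.39, adjusted p = 0.0114). Skin libraries lay above fascia libraries for all 4. Egr1, another transcription factor of this kind, was not called, with 826 and 2704 CPM in the skin cells and 698 and 1521 CPM in the fascia cells. The same genes had a median of 0.86 in endothelial, 1.22 in immune and 1.26 in mural cells, and what moved them in several cell classes was not tested. Immediate early genes had 1 higher and 0 lower without fascia replicate 1 and 4 higher and 0 lower without fascia replicate 2. Fos was no longer called in collagen-lean cells alone (adjusted p = 0.0528).

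The heat shock element GAANNTTC, the pair of units that heat shock factor binds, was in the promoters of 7 of the 9 rising heat shock genes with an entry, and in 8.25% of all 24206 promoters, on either strand (the motif reads the same on both). Hspb1 and Dnajb1 are printed as the pair with the highest log2 changes, with the matches in capitals.
Hspb1, chr12:26432252-26432551, minus strand: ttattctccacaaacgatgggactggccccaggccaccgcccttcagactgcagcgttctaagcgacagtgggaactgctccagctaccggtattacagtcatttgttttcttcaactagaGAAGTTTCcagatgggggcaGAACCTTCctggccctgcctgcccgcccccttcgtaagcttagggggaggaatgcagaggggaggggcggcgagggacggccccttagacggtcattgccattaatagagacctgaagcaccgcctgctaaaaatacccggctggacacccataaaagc
Dnajb1, chr19:41431092-41431391, minus strand: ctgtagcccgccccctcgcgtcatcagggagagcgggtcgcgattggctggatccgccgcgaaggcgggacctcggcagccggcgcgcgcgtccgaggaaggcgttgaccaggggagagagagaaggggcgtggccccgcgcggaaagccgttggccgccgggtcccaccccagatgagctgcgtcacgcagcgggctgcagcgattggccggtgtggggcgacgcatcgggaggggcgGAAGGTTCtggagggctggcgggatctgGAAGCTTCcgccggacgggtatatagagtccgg
Each holds 2 matches in the 300 bases.

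Antioxidant genes, the group to which Gpx3 belongs by function, had 6 higher and 1 lower of 26 tested (median 0.42). Txnrd1, the selenium-containing thioredoxin reductase, had 229.8 and 243 CPM in the skin cells and 35.5 and 36.9 CPM in the fascia cells (log2 change 3.04, SE 0.24, adjusted p = 0.00824), and both skin libraries exceeded both fascia libraries. Sod2, the mitochondrial superoxide dismutase, had 1063 and 890.3 CPM in the skin cells and 139 and 178 CPM in the fascia cells (log2 change 2.98, SE 0.37, adjusted p = 0.0141). The metallothionein gene Mt2A had 2104 and 843 CPM in the skin cells and 88.4 and 77.9 CPM in the fascia cells (log2 change 4.57, SE 0.66, adjusted p = 0.0185). Mt1 had 293 and 106 CPM in the skin cells and 12.1 and 11.1 CPM in the fascia cells (log2 change 4.52, SE 0.66, adjusted p = 0.0188). Hmox1, which breaks down haem, and the glutathione transferase gene Gsta1 rose as well, while its relative Gstm1 fell, with 28.3 and 63 CPM in the skin cells and 229 and 194 CPM in the fascia cells (log2 change -1.91, SE 0.32, adjusted p = 0.0233). With cells of 2 or more Pi16 UMIs left out, the log2 change of Gsta1 turned to -0.0335. Txn1, thioredoxin, was not called, with 488 and 511 CPM in the skin cells and 502 and 450.4 CPM in the fascia cells. Gpx3, which the rule used, stood at 799 and 1739 CPM in the members, against 1321 and 1308 CPM in the fascia cells. Antioxidant genes had 0 in both directions without fascia replicate 1 (6 and 1 unadjusted), 1 higher and 0 lower without fascia replicate 2 and 7 higher and 2 lower without skin replicate 1. By cells kept, antioxidant genes had 5 higher and 0 lower without keratin-bearing cells, 5 higher and 0 lower in collagen-lean cells alone and 5 higher and 0 lower without cells of 2 or more Pi16 UMIs. Gsta1 and Gstm1 were no longer called in collagen-lean cells alone (adjusted p = 0.0569 to 0.0906).

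**Figure D4:**
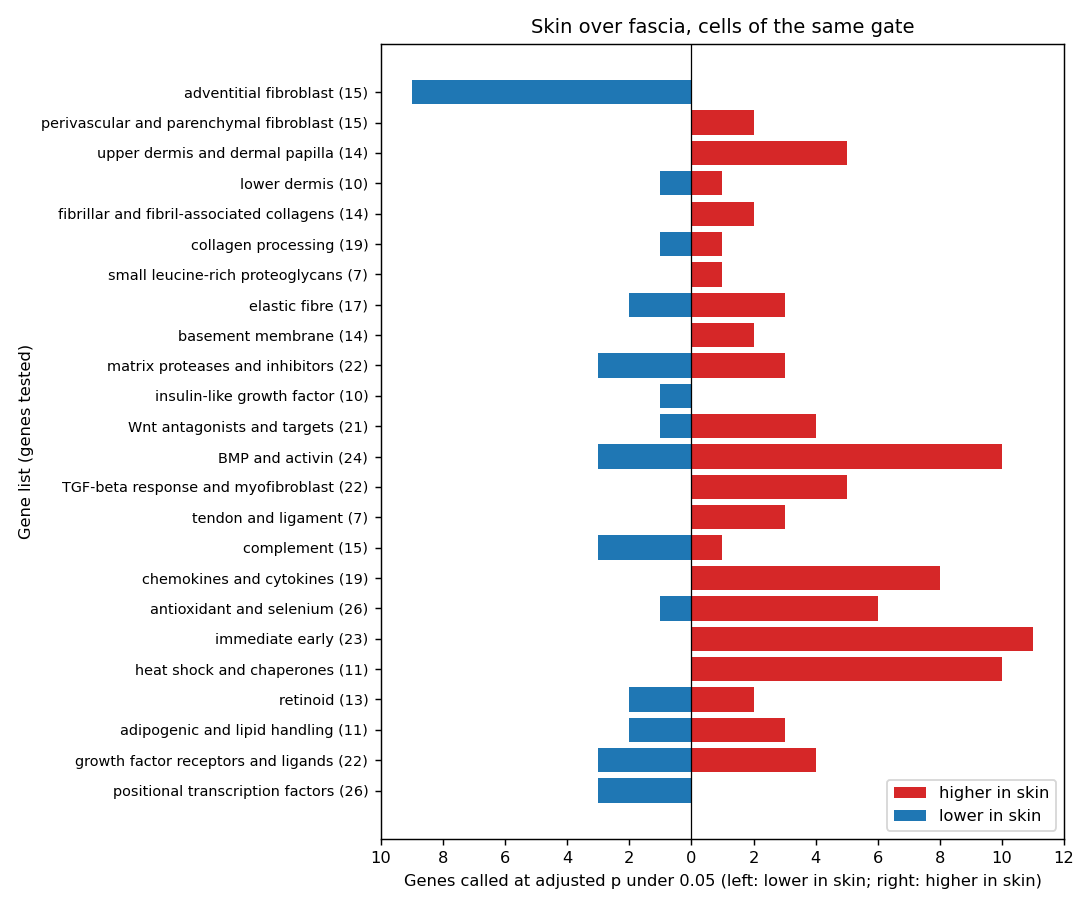
Number of genes of each list that were lower (blue, left) or higher (red, right) in the skin members than in the fascia cells of the same rule at an adjusted p under 0.05 by edgeR's quasi-likelihood test; the number tested stands in brackets. Immediate early (11 of 23), heat shock (10 of 11), BMP and activin (10 of 24) and chemokine genes (8 of 19) have the most rises, and adventitial genes the most falls (9 of 15). Over all genes tested, 7.91% were higher and 3.42% lower.

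Genes that had set all skin fibroblasts apart from all fascia fibroblasts in an earlier look at the same libraries were followed in the members. Since they were chosen on these data, their direction is no independent evidence. All 11 skin-high genes were higher in the members, and 9 of 11 fascia-high genes lower. Of the skin-high genes, 7 were higher in collagen-rich than in collagen-lean cells of both libraries. Ndufa4l2, a mitochondrial protein of hypoxic cells, had 1483 and 1585 CPM in collagen-rich and 650.0 and 23.6 CPM in collagen-lean cells. F5, which codes for coagulation factor V and was not among the 7, had 104 and 75.1 CPM in collagen-rich and 177 and 0 CPM in collagen-lean cells. In collagen-lean cells alone, 6 of the 11 could be tested and 4 were higher, among them Thbs1 (log2 change 7.04, adjusted p = 0.0272) and Hs6st3 (log2 change 5.57, adjusted p = 0.0171). Of the fascia-high genes, 8 of 11 were lower there. Nell1 and Chst1 were those not called, each with 1 UMI in the members of skin replicate 2 and 0 in skin replicate 1. The skin-high list had 0 in both directions without fascia replicate 1 (11 and 0 unadjusted). By cells kept, the skin-high list had 4 higher and 0 lower in collagen-lean cells alone and 7 higher and 0 lower without cells of 2 or more Pi16 UMIs. Ccl19 was no longer called in collagen-lean cells alone (adjusted p = 0.0661). By cells kept, the fascia-high list had 0 higher and 2 lower without cells of 2 or more Pi16 UMIs. Gsc was no longer called in collagen-lean cells alone (adjusted p = 0.0608).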

How the data were processed

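The authors deposited raw UMI counts per gene and cell barcode for 4 libraries. Per the submitters' processing notes the reads were aligned with STAR in Cell Ranger 6.0.1 and the builds are mRatBN7.2 and GRCh38.p13, while per the file headers the matrices come from Cell Ranger 7.0.0. Whether intron reads were counted is not given in the sources used here. The rat genes of the table were used.

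The members and gene lists were chosen with earlier results of these data known. Counts of the cells that pass the rule were summed per library and scaled to CPM, and the tissues were compared by the quasi-likelihood test of edgeR 4.0.16 under R 4.3.3, after TMM scaling and filterByExpr. P-values were adjusted by Benjamini-Hochberg over all genes tested, with a threshold of 0.05. A log2 change is skin over fascia, with its SE from the test statistic. The fit was tested on simulated data in which 200 genes of above-median count were changed. It called 0% of them at a 2-fold change, 93.5% at 4-fold and 100% at 16-fold, with 1, 18 and 19 false calls. A gene not called may therefore still differ 2-fold between the tissues. Genes named were, for each direction, the 12 called genes that changed most and had at least 20 CPM in both libraries of the higher tissue, no overlap and 0.2 of the level in other cell classes, up to 4 called and 2 uncalled members of each list, the 10 genes per direction with the largest change against Igfbp2-high cells at 50 CPM or more, and the genes of the rule. Some that the rule selects are not described, and those in the sets of members, their leading genes and the collagen-lean comparison were chosen after values were seen. Where a tissue had 0 UMIs of a gene, 3 counts over its libraries stood in as the floor, and 1 to 3 UMIs gave a ratio and its counting interval. Of 486 list genes, 463 were in the table under their symbol. Doublets were scored with Scrublet in Scanpy 1.11.5 and kept. The 18 alternatives included DESeq2 1.42.0, and 2 of them were added after the data were seen.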

Additional observations from a re-analysis of the deposited data

How the results depend on the processing

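Of 12083 genes, 956 were higher and 413 lower in the members. Counts within 1.5 times of these came from normalisation by relative log expression, at most 10% mitochondrial UMIs, at least 1000 genes and a marker sum of at least 6 UMIs, and Igfbp2 under 3 UMIs left 651 higher but 258 lower. Replicate number as a block gave 1014 higher and 467 lower; the numbers pair no animals in the labels, and same-numbered libraries did not deviate together (r = 0.00408, 2 pairs). Leaving out 1 library gave 67 to 1265 higher and 29 to 790 lower, the fewest without fascia replicate 1. DESeq2 gave 1462 higher and 630 lower, and the cause was not tested. Without a low-count filter, with 19356 genes tested, there were 1944 higher and 1354 lower, with rises 58.9% of calls against 69.8% and the median of all genes shifted by -0.12; without skin replicate 2 rises were 58.4%. Fewer cells or UMIs left fewer calls: 447 higher and 174 lower with doublets removed, 466 higher and 218 lower with cells thinned to 2000 UMIs, 494 higher and 178 lower without keratin-bearing cells, and 379 higher and 94 lower without cells of 2 or more Pi16 UMIs (rises 80.1% of calls), which left 317 and 138 fascia cells. As settings added after the data were seen, Igfbp2 under 3 UMIs with keratin-bearing cells left out gave 478 higher and 176 lower, and collagen-lean cells alone 487 higher and 215 lower. Among called genes the sign changed for 42 with cells of 2 or more Pi16 UMIs left out, for 4 in collagen-lean cells alone and for 1 with Igfbp2 under 3 UMIs and keratin-bearing cells left out. Of these genes, 3 are named here, all in the Pi16 setting, and their log2 change turned to 0.46 for Bmp7, 0.0131 for Cd55 and -0.0335 for Gsta1, and the cause was not tested. In the members 1 UMI was 0.884 and 0.543 CPM, so falls of genes at a few CPM in the fascia were not detectable at this depth.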

Other observations

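Further lists were counted in the members against the fascia cells of the same rule. Over all genes tested, 7.91% were higher and 3.42% lower. Tendon and ligament genes had 3 higher and 0 lower (0 unadjusted, 0 by DESeq2) of 7 tested (median 3.42). Tnmd, the tendon membrane protein tenomodulin, had 24.7 and 28.8 CPM in the skin cells and 3.67 and 2.38 CPM in the fascia cells (log2 change 3.42, SE 0.32, adjusted p = 0.00932). Scx, the tendon transcription factor scleraxis, had 1.77 and 7.60 CPM in the skin cells and 0.0292 and 0.103 CPM in the fascia cells, with skin higher by a ratio of 118-fold (95% counting interval 27.8 to 1061), adjusted p = 0.0188. Tnc had 18.6 and 10.9 CPM in the skin cells and 1.02 and 1.96 CPM in the fascia cells (log2 change 3.70, SE 0.60, adjusted p = 0.0227). Both skin libraries lay above both fascia libraries for all 3. Tendon genes had 5 higher and 0 lower without skin replicate 1. By cells kept, tendon genes had 1 higher and 0 lower without keratin-bearing cells and 0 in both directions without cells of 2 or more Pi16 UMIs (2 and 0 unadjusted). Tnc was no longer called in collagen-lean cells alone (adjusted p = 0.1). Complement genes had 1 higher and 3 lower of 15 tested (median -0.67). Masp1, a protease of the lectin pathway, had 26.5 and 27.7 CPM in the skin cells and 5.92 and 4.96 CPM in the fascia cells (log2 change 2.63, SE 0.27, adjusted p = 0.0112). C6, a part of the membrane attack complex, had 0.884 and 5.43 CPM in the skin cells and 27.8 and 24.7 CPM in the fascia cells (log2 change -2.60, SE 0.47, adjusted p = 0.0281). Masp1 was the 1 gene called higher, and C6 was among the 3 called lower. Genes of complement had 0 in both directions without fascia replicate 1 (1 and 4 unadjusted), 0 in both directions without fascia replicate 2 (1 and 4 unadjusted), 1 higher and 5 lower without skin replicate 1 and 2 higher and 7 lower without skin replicate 2. By cells kept, genes of complement had 1 higher and 0 lower without keratin-bearing cells, 1 higher and 1 lower in collagen-lean cells alone, 1 higher and 0 lower without doublet-marked cells and 0 higher and 2 lower without cells of 2 or more Pi16 UMIs. C6 was no longer called in collagen-lean cells alone (adjusted p = 0.113). Retinoid genes had 2 higher and 2 lower of 13 tested (median 0.29). The synthesis enzyme Aldh1a1 rose, with 8.84 and 11.4 CPM in the skin cells and 0.146 and 0.31 CPM in the fascia cells (log2 change 5.96, SE 0.58, adjusted p = 0.0104). Its highest level was in the Apod-rich set, at 221 and 188 CPM, beside 0 and 6.89 CPM in collagen-lean cells. In skin replicate 2 the Apod-rich cells had 58406 summed UMIs and the collagen-lean cells 1016057. Aldh1a3, which catalyses the same step, fell, with 0 and 2.17 CPM in the skin cells and 183 and 71.8 CPM in the fascia cells (log2 change -6.30, SE 0.85, adjusted p = 0.0166). Retinoid pathway genes had 0 higher and 1 lower without fascia replicate 1, 1 higher and 2 lower without fascia replicate 2 and 5 higher and 2 lower without skin replicate 2. By cells kept, retinoid pathway genes had 1 higher and 2 lower without keratin-bearing cells, 0 higher and 1 lower in collagen-lean cells alone, 1 higher and 2 lower without doublet-marked cells and 1 higher and 1 lower without cells of 2 or more Pi16 UMIs.

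Adipogenic and lipid-handling genes had 3 higher and 2 lower of 11 tested (median -0.05). Pparg, the master regulator of fat cells, had 0 and 1.09 CPM in the skin cells and 16.2 and 24.8 CPM in the fascia cells, with skin lower by a ratio of 26.9-fold (95% counting interval 7.42 to 222), adjusted p = 0.0206. Fabp4, a fatty acid carrier, had 4.42 and 14.1 CPM in the skin cells and 85.3 and 153 CPM in the fascia cells (log2 change -3.31, SE 0.49, adjusted p = 0.0194). Both lay under 0.2 of their level in another cell class. The transcription factor genes Cebpb and Cebpd, which also respond to inflammation, rose, Cebpd with 1105 and 1955 CPM in the skin cells and 414 and 396 CPM in the fascia cells (log2 change 2.21, SE 0.32, adjusted p = 0.0184). Adipogenic genes had 0 higher and 1 lower without fascia replicate 1, 1 higher and 1 lower without fascia replicate 2 and 3 higher and 4 lower without skin replicate 2. By cells kept, adipogenic genes had 2 higher and 1 lower in collagen-lean cells alone, 2 higher and 1 lower without doublet-marked cells and 0 higher and 1 lower without cells of 2 or more Pi16 UMIs. Cebpd and Pparg were no longer called in collagen-lean cells alone (adjusted p = 0.0514 to 0.124). Transcription factors that mark body position had 0 higher (3 unadjusted, 1 by DESeq2) and 3 lower of 26 tested (median -0.16). Gsc, the homeobox gene goosecoid, had 0.884 and 1.09 CPM in the skin cells and 45.1 and 20.6 CPM in the fascia cells, with skin lower by a ratio of 39.4-fold (95% counting interval 13.5 to 191), adjusted p = 0.0207. Hoxc9, another homeobox gene, had 18.6 and 17.9 CPM in the skin cells and 53.2 and 52.5 CPM in the fascia cells (log2 change -1.22, SE 0.24, adjusted p = 0.0346). Both were lower in skin without overlap, while Prrx1, with 270.5 and 223 CPM in the skin cells and 364 and 370.2 CPM in the fascia cells, was not called. Positional genes had 0 in both directions without fascia replicate 1 (0 and 3 unadjusted), 0 higher and 1 lower without fascia replicate 2 and 1 higher and 5 lower without skin replicate 1. By cells kept, positional genes had 0 higher and 1 lower without keratin-bearing cells, 1 higher and 0 lower in collagen-lean cells alone and 0 higher and 1 lower without doublet-marked cells. Gsc and Hoxc9 were no longer called in collagen-lean cells alone (adjusted p = 0.0608 to 0.0647). The body site of the samples is not given in the labels used here.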
